A study of Mus musculus with 8 samples.

Results

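The genes examined here encode proteins of the nucleolus and of ribosome biogenesis. They are 34 of 34614 protein-coding and lncRNA genes in the RefSeq table of assembly GRCm38.p6, and all are protein-coding, as are 21887 genes of the table. An R-loop peak was assigned to a gene when its summit lay within the gene's bounds extended by 1 kb on each side, which gave 26 of 40207 deposited peaks. The series profiled R-loops, which are DNA:RNA hybrids with a displaced DNA strand, in haematopoietic stem cells of young and aged mice. The cells were sorted fresh from bone marrow as lineage-negative, Sca1+, cKit+ and CD34- cells, and no treatment was given. S9.6, an antibody against DNA:RNA hybrids, was used for capture, and ssDRIP-seq for sequencing, a protocol that keeps the strands apart. Each age had 2 immunoprecipitated and 2 input libraries, 8 samples in all, and the sources used here do not give the animals' exact ages or how many were pooled. Peaks come as 4 deposited lists, a forward and a reverse list per age, in which the replicates of an age are combined.

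Ribosome production starts in the nucleolus, where RNA polymerase I transcribes the repeated ribosomal RNA genes. The precursor is cut, folded and chemically modified there by small nucleolar ribonucleoproteins (snoRNPs) and assembly factors, which build the small and large subunits. Haematopoietic stem cells are known for a low rate of protein synthesis, and inherited defects of ribosome production are known for their effects on blood formation. Actively transcribed, G-rich DNA is known as a frequent place of R-loops. The peak lists speak only of hybrids at the protein-coding genes of this machinery, not of ribosomal RNA or of the genes' expression.

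Because the lists hold nothing per replicate, the ages are compared without a test, and every interval given covers counting error alone. For each peak the authors' caller gave a fold over the local background at the summit and a q-value. Whole reads at the summit were recovered from the deposited fold and p-value. The 24009 young and 16198 aged peaks had a median of 8 summit reads at each age and median folds of 4.80 and 4.73. The genome background stood at 0.825 reads in young and 0.690 in aged, and the weakest peaks called over it had 6 and 5 reads. Absence from a list therefore means, over the genome background, that a site did not reach about that height. Over a higher local background more reads were needed, so an uncalled site there can hold more. Of the haematopoietic stem cell marker genes, 5 of 10 carried a peak at each age, and of the erythroid (7 genes), megakaryocyte (6), myeloid (7), B cell (6) and T cell (6) markers no more than 1 gene per lineage did at either age. Protein-coding genes of the same lengths give levels of 3.88 young and 3.26 aged genes for the stem cell markers and of 0.591 to 1.87 for the lineage lists, so these counts lie near what gene length gives. A peak is not a measure of expression, and the lists do not check the labelled cell type.

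More of these genes carried a peak in aged cells than in young cells, although the aged lists are shorter. The genes and the lists set beside them were chosen with earlier results of these data known. Here and below, a count above its background therefore describes the chosen genes and is no independent support for an excess. An aged peak was present in 10 of 34 genes (29.4%), beside 20.0% of all protein-coding genes. A young peak was present in 7 of 34 (20.6%), beside 23.8% of all protein-coding genes. Peaks at both ages were found in Ubtf and Ncl, 2 of 34 genes beside 10.6% of all. Aged peaks alone were found in 8 genes, Taf1b, Taf1c, Taf1d, Polr1a, Ttf1, Npm1, Nolc1 and Nat10, beside 9.43% of all. Young peaks alone were found in 5 genes, Dkc1, Gar1, Rrs1, Bop1 and Wdr12, beside 13.3% of all. The other 19 genes had no peak in any list.

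Gene length bears on these shares, because long genes collect more peaks. The 34 genes ran from 0.973 to 80.2 kb with a median of 15.9 kb, against 17.2 kb for all protein-coding genes. If each gene had carried a peak as often as protein-coding genes of its length class, the count would have been 4.81 genes in aged and 5.81 in young. The 10 genes of up to 10 kb had 2 with a peak at each age, where the class as a whole stood at 5.19% in young and 4.98% in aged. Of the 17 genes between 10 and 30 kb, 5 had a young and 5 an aged peak, beside 15.7% and 13.1% of the class. The 7 genes between 30 and 100 kb had no young peak and 3 with an aged peak, beside 37.4% and 29.9%. The aged share thus stood above that of the class in each of these 3 length classes, and the young share in the 2 shorter ones. Per megabase of gene and flank, the members held 12.3 young and 19.7 aged summits, against 9.12 and 6.45 over all protein-coding genes. Protein-coding genes of up to 10, 10 to 30 and 30 to 100 kb held 8.86, 8.46 and 9.21 young summits. The same classes held 9.01, 7.15 and 6.97 aged summits. Ubtf and Ncl gave 3 and 2 of the 10 young and 4 and 3 of the 16 aged member summits. A site called on both lists of an age counted once on each. The ages also differed in genome background, as given above, and its part in these counts was not tested.

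**Figure D1:**
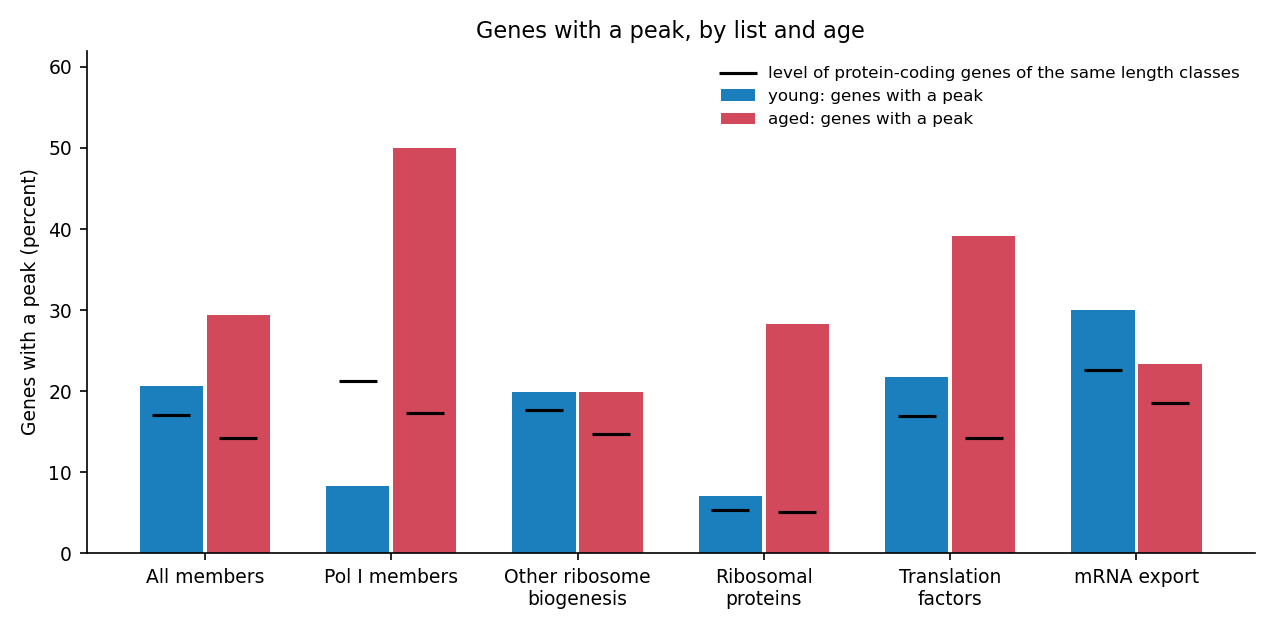
Percentage of genes with a peak (vertical axis) in young (blue bars) and aged (red bars) lists for the 34 genes, the 12 of them in RNA polymerase I transcription and 4 other gene lists; black lines mark the level of protein-coding genes of the same length classes. The RNA polymerase I genes reach 50% in aged and 8.33% in young, the widest gap between the ages of the 6 lists shown. The other functional groups of the 34 genes are not shown on their own. Of these, the smaller abundant nucleolar, box H/ACA and large subunit groups had wider gaps by share.

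The member peaks also differed in height. The 10 young peaks had 7 to 34 summit reads with a median of 9, and the 16 aged peaks had 5 to 94 with a median of 12.5. Median folds were 4.67 in young, close to the median of all young peaks, and 6.51 in aged, above that of all aged peaks. Outside Ubtf the highest young fold was 6.03 and the highest aged fold 11.8, and no young peak outside Ubtf exceeded 10 reads. A summit of at most 10 reads was the case for 8 of 10 young and 7 of 16 aged peaks. Over all peaks the median was 8 reads at each age, so such low summits were common at both. At a −log10 q of at least 5, which drops the weakest peaks, 5 members had an aged peak, beside 5.39% of all protein-coding genes. These were Ubtf, Ncl, Npm1, Taf1b and Taf1d. At the same threshold 1 member, Ubtf, had a young peak, beside 4.51% of all. The threshold is not the same height at both ages. At the genome background, 10 reads gave a −log10 q of 4.86 in young (Gar1 and Ncl). In aged, 10 reads gave 5.74 (Rsl1d1, a gene outside the 34).

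**Figure D2:**
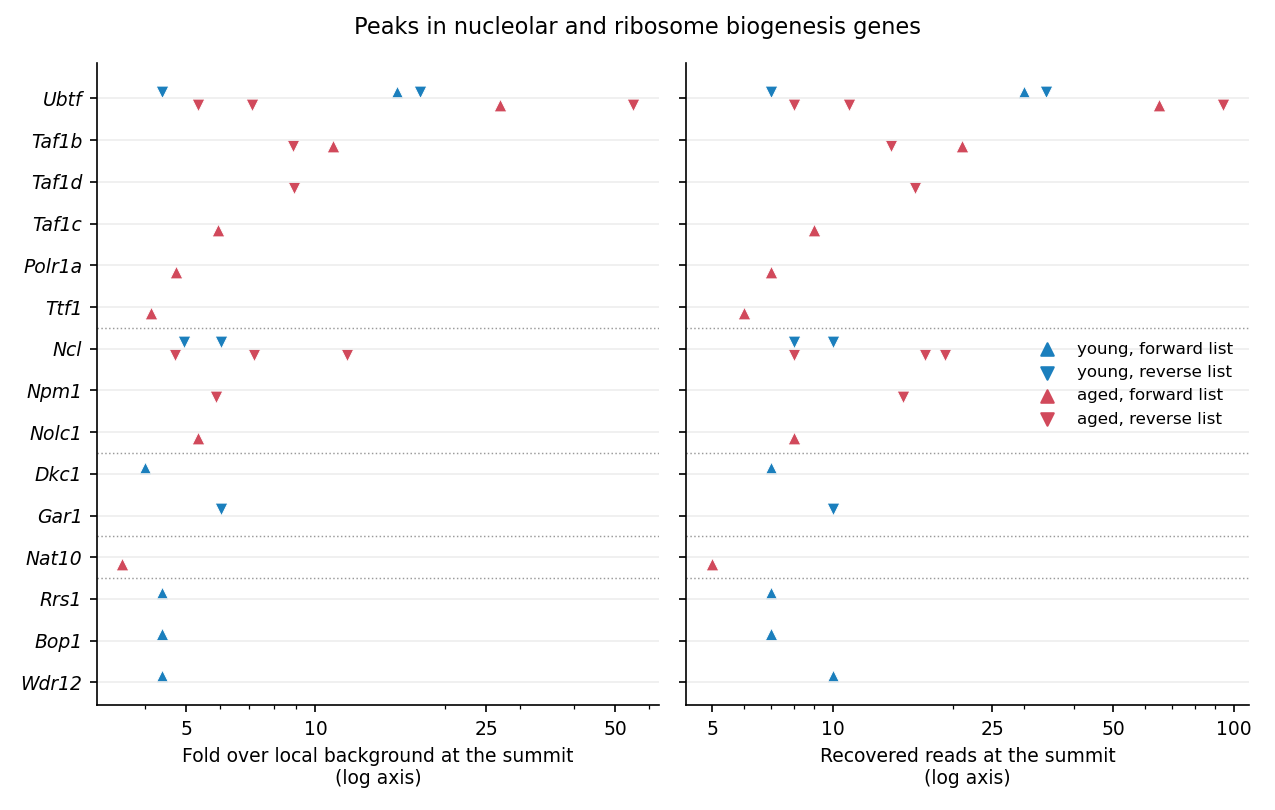
Every peak of the 15 genes with a peak, by fold over the local background (left, log axis) and by recovered summit reads (right, log axis); colour marks the age, an upward triangle the forward list and a downward triangle the reverse list, and dotted lines divide the functional groups. The aged reverse-list peak of Ubtf stands farthest right with 94 reads, and the young peaks outside Ubtf lie at 7 to 10 reads.

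The 12 genes of RNA polymerase I transcription held the strongest of these peaks, and by number of genes they had the widest gap between ages among the 6 functional groups. An aged peak was present in 6 of them and a young peak in 1, where their length classes give levels of 2.08 and 2.54 genes. Ubtf (NCBI Gene 21429, chr11:102304560-102323649, minus strand) encodes the upstream binding factor, an HMG-box protein that coats active ribosomal DNA and keeps it open. It carried 3 young and 4 aged peaks, more than any other member.

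A site near the 3′ end of Ubtf was found in all 4 lists. On the forward list it lay at chr11:102305551-102305809 in young with 30 reads (95% interval 20.2 to 42.8), a fold of 15.5 and a −log10 q of 29.4. The aged forward peak lay at chr11:102305541-102305895 with 65 reads (50.2 to 82.8), a fold of 27.0 and a −log10 q of 78.0. The aged count was thus above the young one by a margin wider than the counting intervals. On the reverse list the young peak lay at chr11:102305549-102305921 with 34 reads (23.5 to 47.5), a fold of 17.5 and a −log10 q of 35.2. The aged reverse peak, at chr11:102305549-102305920, had 94 reads (76.0 to 115), a fold of 55.1 and a −log10 q of 157. The reverse summits of the ages fell on the same base, and the forward summits were 62 bp apart. Aged over young, the summit reads stood at 2.17 (1.39 to 3.46) on the forward and 2.76 (1.85 to 4.22) on the reverse list, as raw ratios. Divided by each age's genome background, the ratios were 2.59 (1.66 to 4.14) and 3.31 (2.21 to 5.05). The replicate spread of these ratios is not known, because each list combines the libraries of an age. The same ratios at strong shared sites of other genes were not analysed, so a rise particular to Ubtf is not claimed.

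The Ubtf site was high in both ages relative to its own lists. It fell in the top 0.853% of young forward and 0.630% of young reverse peaks, and in the top 1.67% and 1.22% of the aged ones. By p-value it ranked 102 of 11951 and 76 of 12058 in young, and 135 of 8088 and 99 of 8110 in aged. Its standing among the peaks of its list was thus lower in aged, although its reads were higher. Its local background was 1.22 and 1.21 times the genome background in the young forward and reverse lists, and 2.10 and 1.05 times in the aged lists. The summits lay 1038 to 1266 bp inside the 3′ bound, at 93.4% to 94.6% of the gene's length. No other gene of the table had bounds within 1 kb of them, and the nearest snoRNA gene was over 500 kb away. The table gives no exons, so whether a summit lay in an exon or an intron was not analysed here.

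The remaining Ubtf peaks were small. Aged cells had peaks on the reverse list at chr11:102307866-102308088 with 8 reads (fold 5.33) and at chr11:102308821-102309066 with 11 reads (fold 7.10, −log10 q 6.87). Young cells had a reverse-list peak at chr11:102318720-102318911 with 7 reads (fold 4.38). This young peak was the nearest of all member peaks to a promoter window, with a gap of 136 bp. The window belongs to a start inside the gene bounds, at chr11:102319047-102319346 on the minus strand. It is shown because it is the closest approach of a peak to a start among the members. RefSeq's window runs from 250 bases before to 50 after the start, and capitals mark runs of at least 4 G or 4 C, the letters of G-rich DNA on either strand.
Ubtf promoter window: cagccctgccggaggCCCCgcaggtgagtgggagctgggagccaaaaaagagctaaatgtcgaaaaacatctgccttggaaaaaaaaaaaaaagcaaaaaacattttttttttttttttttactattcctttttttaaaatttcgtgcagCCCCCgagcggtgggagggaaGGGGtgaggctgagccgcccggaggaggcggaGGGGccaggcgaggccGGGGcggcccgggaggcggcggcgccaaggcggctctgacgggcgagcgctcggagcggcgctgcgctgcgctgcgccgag

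This window holds 60% G and C, with a GC skew, (G − C)/(G + C), of 0.20 on the strand of the gene. It has 3 G runs and 2 C runs.

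**Figure D3:**
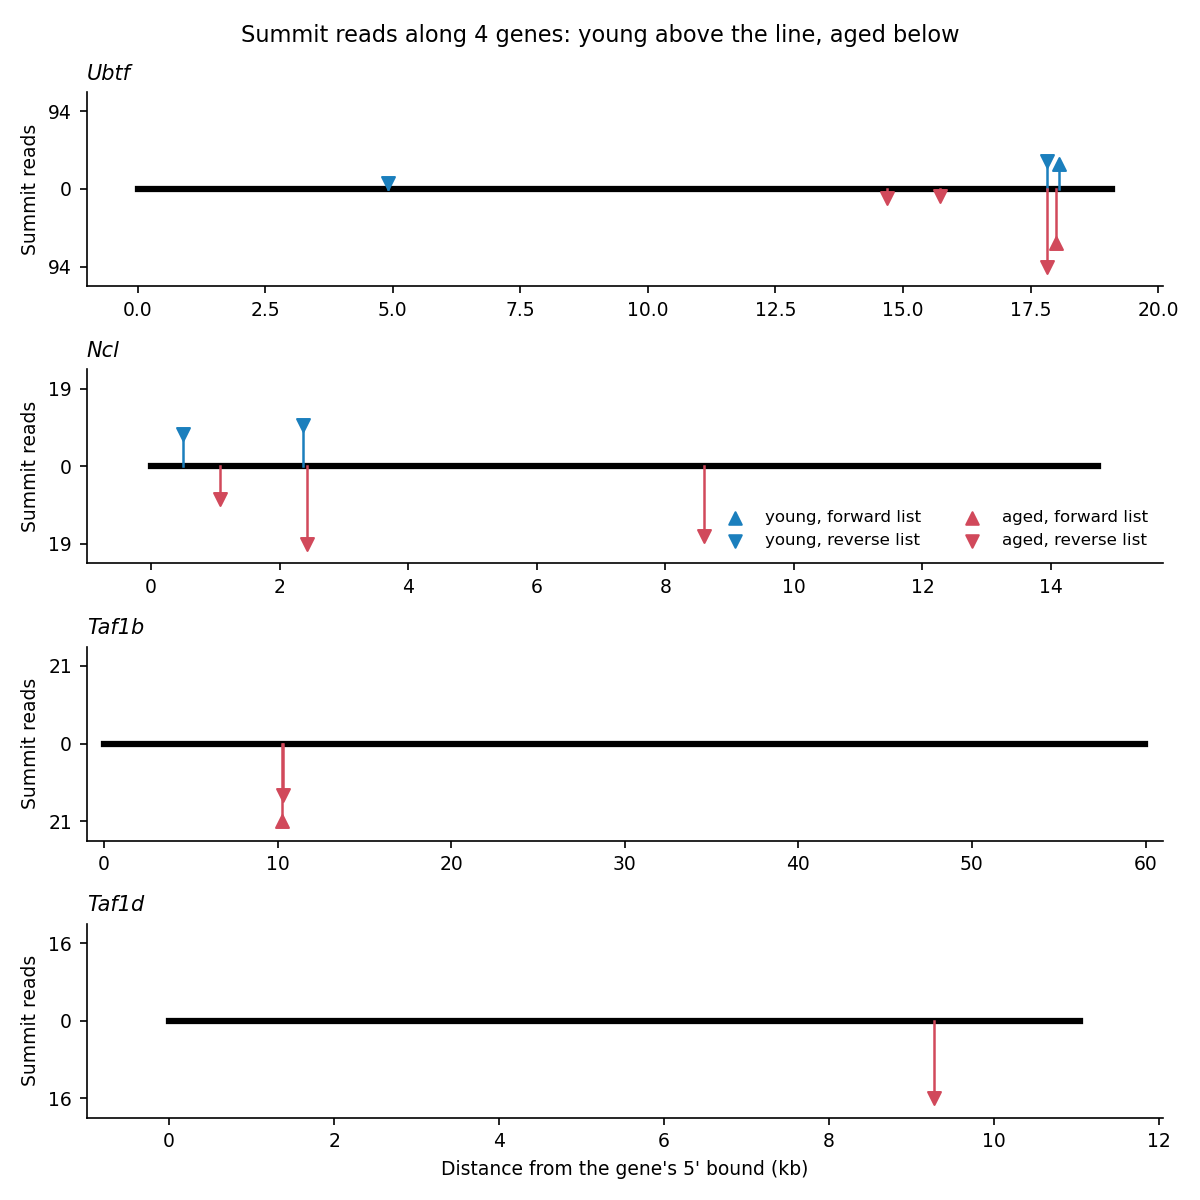
Summit reads (vertical axis, young above and aged below the line) against distance from the 5′ bound of the gene in kb for Ubtf, Ncl, Taf1b and Taf1d; the black bar is the gene and triangles point up for the forward and down for the reverse list. In Ubtf the tallest peaks of both ages stack at 1 place near the 3′ end, while Taf1b and Taf1d have aged peaks only.

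Selectivity factor 1, which holds TBP and the Taf1 proteins and places the polymerase at the ribosomal promoter, had aged peaks at 3 of its 4 members here and no young peak. Taf1b (NCBI Gene 21340, chr12:24498581-24558571, plus strand), whose product resembles the general factor TFIIB, had an aged peak on each list at 17.1% and 17.2% of its length. The forward peak, chr12:24508802-24509011, had 21 reads (13.0 to 32.1), a fold of 11.0 and a −log10 q of 17.1. The reverse peak, chr12:24508805-24509149, had 14 reads (7.65 to 23.5), a fold of 8.88 and a −log10 q of 10.6. Taf1b and Ubtf were thus the members with overlapping peaks on both strands, 4 of 16 aged and 2 of 10 young peaks. How often this was so over all peaks was not analysed.

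Taf1d (NCBI Gene 75316, chr9:15305953-15316997, plus strand) had an aged reverse-list peak at chr9:15315095-15315337 with 16 reads (9.15 to 26.0), a fold of 8.92 and a −log10 q of 11.4. Taf1d hosts 6 snoRNA genes, and this summit fell inside 1 of them (LOC115487278, chr9:15315189-15315321). Of the 26 member summits, no other lay in a snoRNA gene or within 200 bp of its edge. Taf1c had an aged forward-list peak of 9 reads and a fold of 5.92, at chr8:119597547-119597761. Its summit lay 329 bp beyond the gene bound and also within 1 kb of Dnaaf1. Taf1a, the remaining subunit, had no peak.

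Peaks in the polymerase and its other partners were at or near the lowest heights called. Polr1a, which encodes the largest subunit, had an aged forward-list peak of 7 reads and a fold of 4.74, also inside the lncRNA gene Gm26628. Ttf1, the factor that ends transcription of the ribosomal genes, had an aged forward-list peak of 6 reads and a fold of 4.14. Polr1b, Polr1c, Polr1d and Polr1e, which encode other subunits, and Rrn3, which links the polymerase to selectivity factor 1, had none.

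Of 4 genes for abundant nucleolar proteins, 3 carried an aged peak and 1 a young one, where their length classes give levels of 0.361 and 0.419. Ncl (NCBI Gene 17975, chr1:86344719-86359455, minus strand) encodes nucleolin, which binds the ribosomal RNA precursor and G-quadruplex DNA. It had 2 young and 3 aged peaks, all on the reverse list. A site at 16.0% to 16.4% of the gene was shared between the ages. There the young peak, chr1:86356908-86357178, had 10 reads (4.80 to 18.4), a fold of 6.03 and a −log10 q of 4.86. The aged peak, chr1:86356542-86357252, had 19 reads (11.4 to 29.7), a fold of 11.8 and a −log10 q of 17.4. The raw ratio of aged to young reads was 1.90 (0.841 to 4.57) and that scaled by genome background 2.27 (1.01 to 5.47). The raw interval includes 1 and the scaled interval lies just above it, so whether counting error alone can span the difference at Ncl depends on the scaling.

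The other Ncl peaks were found at 1 age each. An aged peak at chr1:86350596-86351008 had 17 reads (9.90 to 27.2), a fold of 7.20 and a −log10 q of 9.09, and its edge lay 162 bp from Snora75, a snoRNA gene inside Ncl. An aged peak at chr1:86358183-86358389 had 8 reads and a fold of 4.72. A young peak at chr1:86358952-86359209 had 8 reads and a fold of 4.93, with its summit 501 bp from the 5′ bound and also within 1 kb of the gene C130036L24Rik. The gap from that peak to the promoter window of Ncl, chr1:86359406-86359705 on the minus strand, was 197 bp. The window is shown because it lies beside the young peak closest to a 5′ bound among genes of known strand, with runs of at least 4 G or 4 C in capitals.
Ncl promoter window: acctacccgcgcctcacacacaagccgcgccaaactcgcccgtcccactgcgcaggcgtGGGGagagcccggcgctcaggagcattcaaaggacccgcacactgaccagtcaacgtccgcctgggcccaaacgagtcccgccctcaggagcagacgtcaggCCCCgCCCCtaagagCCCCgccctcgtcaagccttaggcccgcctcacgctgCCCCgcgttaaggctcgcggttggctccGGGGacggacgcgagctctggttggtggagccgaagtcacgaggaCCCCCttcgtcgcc

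The Ncl window holds 69.3% G and C with a skew of -0.16, and it has 2 G runs and 5 C runs. Its skew is thus opposite in sign to that of Ubtf.

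Npm1 (NCBI Gene 18148), which encodes the nucleolar histone chaperone nucleophosmin, had an aged reverse-list peak at chr11:33162426-33162929. It held 15 reads (8.40 to 24.7) with a fold of 5.88 and a −log10 q of 6.29, over a local background 2.50 times that of the genome. Nolc1, a chaperone of snoRNPs, had an aged forward-list peak of 8 reads and a fold of 5.33 at chr19:46082889-46083248. Gnl3, which encodes the GTPase nucleostemin and hosts 3 snoRNA genes, had no peak.

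The snoRNP genes had no aged peak, where their length classes give levels of only 0.311 genes for box C/D and 0.280 for box H/ACA, so none is near the background. The box C/D proteins act in ribose methylation, and none of their 3 genes had a peak at either age: Fbl, the methyltransferase, and the core proteins Nop56 and Nop58. Nop56 hosts 5 and Nop58 hosts 4 snoRNA genes. The box H/ACA proteins act in pseudouridylation, and 2 of their 4 genes had a young peak, beside a level of 0.313. Dkc1, the pseudouridine synthase on the X chromosome, had a forward-list peak at chrX:75101743-75101963 with 7 reads and a fold of 4.0. Gar1 had a reverse-list peak at chr3:129829759-129830017 with 10 reads (4.80 to 18.4), a fold of 6.03 and a −log10 q of 4.86. Nhp2 and Nop10, the remaining core proteins, had none. The Gar1 peak equalled the higher Ncl peak of young cells in reads and fold. Its gap to the promoter window of Gar1, chr3:129831347-129831646 on the minus strand, was 1330 bp. The window is shown because Gar1 had the highest peak found in young alone, with capitals as above.
Gar1 promoter window: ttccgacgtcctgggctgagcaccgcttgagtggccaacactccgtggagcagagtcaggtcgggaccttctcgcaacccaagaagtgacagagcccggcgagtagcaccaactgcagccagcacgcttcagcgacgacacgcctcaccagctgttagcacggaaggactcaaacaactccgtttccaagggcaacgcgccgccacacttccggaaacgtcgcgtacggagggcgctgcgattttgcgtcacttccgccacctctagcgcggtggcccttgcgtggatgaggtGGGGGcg

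The Gar1 window holds 63.0% G and C with a skew of -0.04, and it has 1 G run and no C run.

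Peaks in the subunit assembly factors were low. In small subunit processing 1 of 4 genes had an aged and 0 a young peak, near the levels of 1.03 and 1.28 from their length classes. Nat10, which acetylates cytidines of 18S rRNA, had an aged forward-list peak with 5 reads and a fold of 3.55. Its −log10 q of 1.33 lies at the edge of the deposited list. Utp20, Heatr1 and Nop14, which belong to the small subunit processome, had none. In large subunit assembly 3 of 7 genes had a young peak and none an aged peak, where their length classes give levels of 0.891 and 0.753. Bop1 and Wdr12, which act together with Pes1 in the PeBoW complex, had forward-list peaks of 7 reads (fold 4.39) and 10 reads (fold 4.40), and Pes1 had none. Rrs1, which helps to place the 5S ribonucleoprotein, had a forward-list peak of 7 reads with a fold of 4.39. Its summit lay 995 bp inside the gene bound. Nop2, a methyltransferase of large subunit rRNA, and Rrp1b and Nop16, both factors of the large subunit, had no peak.

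Read by group, transcription and abundant nucleolar genes account for 9 of the 10 genes with an aged peak, and H/ACA and large subunit genes for 5 of the 7 with a young peak. The first pair of groups holds 12 and 4 of the 34 genes and the second 4 and 7. The groups were paired with their counts known. These counts are untested and over few genes, and the young-only peaks had 7 to 10 reads. None of the 5 young-only genes reached a −log10 q of 5, whereas 3 of the 8 aged-only genes did. That threshold takes more reads in young than in aged, as given above, and the young-only Gar1 peak fell just below it. Just outside the 1 kb window lay 2 further peaks. Nop58 had an aged forward-list peak of 10 reads and a fold of 6.48, 1319 bp beyond its bound. Nop10 had a young forward-list peak of 9 reads and a fold of 5.49, 2581 bp beyond its bound.

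The position and strand of the peaks were not used to choose the genes. Within 1 kb of a gene bound lay 2 of 10 young and 1 of 16 aged summits. The share over the summits of all genes was not analysed, so these counts are not read as a trait of the members. Strand is known for genes with a promoter window in RefSeq, 30 of the 34. Among these the list carried the name of the gene's own strand for 6 of 8 young peaks and 10 of 15 aged peaks. Over the 17492 protein-coding genes of known strand the share was 47.1% of 7807 young and 54.0% of 5635 aged pairs of peak and gene. Ubtf gave 3 young and 4 aged member peaks and Ncl 2 and 3, so the member shares rest largely on these genes. Peaks of 1 gene are not independent, and the share by gene was not analysed. In Ncl all 5 peaks were on the list of its own strand, whereas the single Taf1d peak was on the opposite one from the gene. Which DNA strand the forward list stands for is not explained by the labels, so no hybrid is called sense or antisense here.

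**Figure D4:**
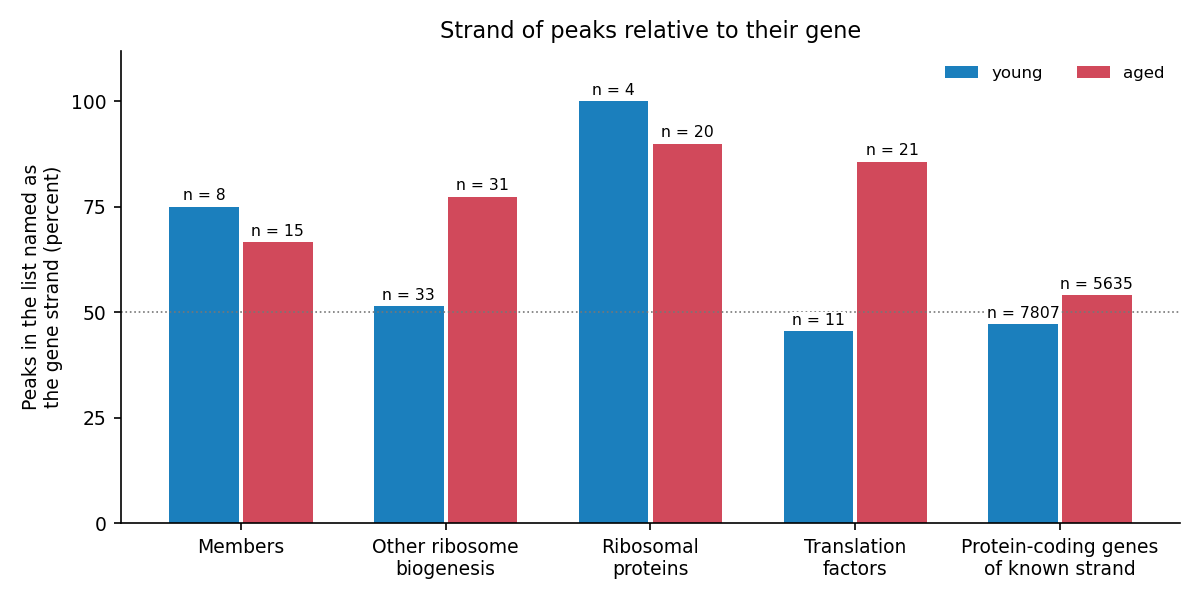
Percentage of peaks in the list named as the strand of their gene (vertical axis) for young (blue) and aged (red) lists, with the number of peaks above each bar and a dotted line at equal shares. The members stand at 75.0% of 8 young and 66.7% of 15 aged peaks, and protein-coding genes of known strand at 47.1% and 54.0%. Much of the member counts comes from Ubtf (3 young and 4 aged peaks) and Ncl (2 and 3).

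None of the 40 promoter windows of the 30 members in the table was overlapped by a peak. Over all 32851 windows 0.487% were overlapped by a young and 0.377% by an aged peak, so a count of 0 in 40 is at the background. The members' windows had a median G and C content of 56.3%, against 52.7% over all windows, and a median skew of 0.028 against 0.013. All windows belong to 27025 genes, of which 17492 are protein-coding, whereas every member is. The comparisons with all windows, also for the motif below, thus set unlike kinds of gene side by side. Genes with several starts, such as Ubtf, count more than once. The motif GGGG was searched on both strands and was present in 39 of 40 windows (97.5%), and in 86.4% of all windows. The motif was so common that members with a peak (19 of 20 windows) and without (20 of 20) could hardly be set apart by it.

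Other genes of the same pathway lay nearer to the level of their length classes in aged cells than the 10 against 4.81 of the members, a difference that was not tested. Of 144 further ribosome biogenesis genes, 141 were in the table, and 28 carried a young and 28 an aged peak, where their length classes give levels of 24.9 and 20.8. Other genes of RNA polymerase I and ribosomal DNA chromatin carried aged peaks in 4 of 15 and young ones in 1 of 15, beside levels of 2.93 and 3.54. The highest of them was in Baz2a, a subunit of the nucleolar remodelling complex, with 34 reads and a fold of 11.7 on the aged reverse list, where the local background was 2.0 reads. Smarca5, its ATPase partner, had a fold of 7.10, and Mybbp1a, a nucleolar regulator, 6.18, both in aged. Top1, the topoisomerase that relaxes supercoils behind polymerases, had a fold of 4.73 in aged and 4.93 in young, at different sites. As among the members, the peaks of this transcription list were mostly aged ones.

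The further assembly lists lay near or above the levels of their length classes, apart from the exosome list in aged, which lay below. Farthest above its level was the large subunit list in aged. In the small subunit list, 10 of 47 had a young and 9 an aged peak, beside levels of 7.63 and 6.39. Utp4 was shared at 1 site with folds of 5.83 in young and 6.89 in aged, and Wdr43 had folds of 5.73 and 7.11 as its highest. Ddx10 (6.04) and Rcl1 (6.03) led the young list. In the large subunit list, 11 of 53 had a young and 13 an aged peak, beside 8.99 and 7.55. Ppan (7.70), Ddx24 (7.10), Ddx56 (7.10) and Noc2l (6.51) led in aged, and Tex10 (6.58), Mdn1 (6.04) and Nvl (5.20) were among the highest in young. The exosome list, which trims precursor RNA, had 3 of 15 genes with a young peak, Mtrex (6.03), Xrn2 (5.0) and Dis3 (3.0), and 0 with an aged peak, beside levels of 2.27 and 1.89. In the snoRNP assembly list, 3 of 11 had a young and 2 an aged peak, beside 2.50 and 2.04, led by Naf1 (6.0, young) and Ruvbl2 (4.93 young, 5.33 aged).

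Gene lists near in function were set beside the same length-class levels. Aged peaks in the members numbered 10 against a level of 4.81. Ribosomal protein genes, whose median length was 3.18 kb, had 24 of 85 with an aged peak against a level of 4.32, and 6 with a young peak against 4.51. Translation factors had 18 of 46 with an aged peak against 6.51, and 10 with a young peak against 7.80. The mRNA export genes had 7 of 30 with an aged peak against 5.57, and 9 with a young peak against 6.77. Relative to length the aged count of the members thus stood above that of mRNA export genes and below those of the other lists. None of these differences was tested, and all of these lists were chosen with earlier results known.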

How the data were processed

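R-loops were profiled by ssDRIP-seq in 8 samples of mouse haematopoietic stem cells, and 4 peak lists were deposited. Per the submitters' processing notes, the genome was GRCm38, and MACS3 (3.0.0b1), Bowtie2 (2.4.4), deepTools (3.5.1) and Trim Galore are the tools named, with no order or role. How replicates and input libraries were merged, how duplicate reads were handled and with what settings is not given in the sources used here. Each deposited line holds the authors' fold over the local background (a ratio) and the deposited −log10 p-value and −log10 q-value. These are the authors' values and serve only to describe and filter peaks.

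Whole reads were recovered from fold = (reads + 1)/(background + 1) and a Poisson upper tail for p, matching the deposited −log10 p within 0.1% for 100% of peaks. The recovery and the assignment of peaks to genes were checked on simulated data. Depth is not given in the files, and the recovered genome background stands in for it. Intervals are exact 95% Poisson or binomial intervals and cover counting error only, since reads are not independent molecules. Gene bounds, strands and promoter windows came from RefSeq tables of GRCm38.p6. Peaks of the ages were called shared at an overlap of at least 1 bp on the same strand. Length classes were bounded at 10, 30 and 100 kb.

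Every member is accounted for. Full values are given for members with a −log10 q of at least 5, with peaks in both ages or with 2 or more peaks, and for the pathway lists up to 4 genes with the highest fold per age. Of the further pathway genes 3 of 144 were not matched by symbol. The members and lists were chosen with earlier results of these data known. No test between ages was possible. Alternatives covered the peak threshold, list length, gene window, strand and local background. The work used matplotlib 3.10.9, scipy 1.17.1, pandas 2.3.3 and numpy 2.4.6 under Python 3.11.15.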

Additional observations from a re-analysis of the deposited data

How the results depend on the processing

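Of 72 alternative values, 51 stayed within 1.5 times of the value reported. Taf1b, Taf1d, Npm1, Taf1c, Nolc1, Polr1a, Ttf1 and Nat10 stayed aged-only with each list cut to its 8088 strongest peaks. They also did with a 3 kb extension and with assignment by overlap. The cut left the aged lists (8088 and 8110 peaks) nearly whole, and the other 2 settings only add peaks. An aged peak could thus hardly be lost. Of the 5 young-only genes, 4 stayed so under the cut and 5 under each other setting. With no extension Taf1c dropped out. Leaving out any peak 1 kb or less from a call of the opposite list dropped Taf1b. Peaks at the genome background alone left 6 of the 8, without Npm1 and Taf1d. A −log10 q of at least 5 left 5 members with an aged peak and 1 with a young peak (beside 5.39% and 4.51%). It left 4 with an aged peak only (Ncl, Npm1, Taf1b and Taf1d), 0 with a young peak only and 1 with both (beside 4.10%, 3.23% and 1.29%). These rest on 9 aged and 2 young peaks, and 0 summits lay within 1 kb of a gene end at either age. The higher young Ncl peak fell just below this threshold, at 4.86, and the threshold takes more reads in young than in aged. A fold of at least 5 left 3 members with a young peak, 5 with an aged peak only and 1 with a young peak only (beside 10.6%, 6.06% and 7.36% of all protein-coding genes), and 4 young peaks. Peaks at the genome background alone left 3 members with a young peak only (beside 10.1%), 9 aged and 6 young peaks. A gene-end window of 3 kb held 9 aged and 7 young summits, against 1 and 2 within 1 kb, and a window of 500 bp held 0 young ones. Over protein-coding genes alone 23.8% of genes had a young and 20.0% an aged peak, against 19.8% and 16.1% with lncRNA genes included. No paired analysis was possible because each list combines the replicates of an age, and for the same reason no replicate could be left out. The low summit reads limit most member peaks: 15 of 26 rest on 10 reads or fewer.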

Other observations

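Genes that host small nucleolar RNAs were looked at after the data were seen. Among the members, 3 of 6 hosts and 12 of 28 other genes had a peak at either age. Over protein-coding genes of up to 10 kb, 25.4% of 63 hosts carried an aged peak and 6.35% a young one, against 4.82% and 5.18% of 7863 genes without a snoRNA gene inside. Without the ribosomal protein genes the hosts stood at 21.2% of 33 in aged and 9.09% in young. Aged peaks lay there in Eif4a1, Eif4a2, Eif5, Hspa8, Ppan, Rack1 and Tpt1, and Ranbp1 had a young peak only. Ribosomal protein genes of that length had an aged peak in 9 of 30 hosts and in 15 of 54 others (27.8%), so their share was similar with and without a hosted snoRNA gene. Between 10 and 30 kb, hosts stood at 19.7% in aged and 18.0% in young, against 13.0% and 15.7%. Of 1340 snoRNA genes, 1 was overlapped by a young and 7 by an aged peak, the latter including 2 in Gas5 and the 1 in Taf1d.

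Ribosomal RNA sequence was also looked at after the data were seen. The repeated ribosomal RNA genes themselves were not analysed here. At Rn18s-rs5, an 18S-related pseudogene on chromosome 17, the highest forward-list peak had 418 reads and a fold of 14.7 in young and 301 reads and a fold of 12 in aged. The local background was 33.2 and 35.1 times that of the genome. These peaks spanned 5358 bp in young and 2221 bp in aged and so reached beyond the pseudogene, which is 1849 bp long. Whether reads of the repeated ribosomal RNA genes map to this place was not tested. On the reverse list young cells had peaks of 279 reads (fold 6.07) and 79 reads (fold 2.66), and aged cells had a peak of 175 reads (fold 2.98). The local background of the 279-read peak was 54.6 times that of the genome and of the aged peak 84.1 times. The highest summit count on each strand was thus the young one, unlike at Ubtf. The 48 5S ribosomal RNA genes on chromosome 8 held no peak summit at either age.

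The list name matched the gene's strand for 24 of 31 aged and 17 of 33 young peaks of other ribosome biogenesis genes, and for 18 of 21 and 5 of 11 peaks of translation factors. The order was the opposite for the members (66.7% aged, 75.0% young) and for mRNA export genes (4 of 6 and 5 of 7), and over protein-coding genes of known strand the shares were 54.0% and 47.1%. For ribosomal protein genes it did so for 18 of 20 aged and 4 of 4 young peaks. These differences were not tested.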
